A study of Mus musculus with 21 samples.

Results

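The 9 genes followed here are the erythroid transcription factors Klf1 and Gata1, the erythropoietin receptor Epor, the carbonic anhydrases Car1 and Car2, and the adult globins Hba-a1, Hba-a2, Hbb-bs and Hbb-bt. They are the entries of those names among the 28987 gene identifiers of a TPM table (a level corrected for transcript length and scaled to a fixed total per library) of sorted mouse bone marrow cells. Of its 21 libraries, 6 came from multipotent progenitors, sorted as MPP3/MPP4 and called MPP here, and 15 from LT-HSC, the long-term stem cells of blood. They form 7 groups of 3. Batch 1 holds RXR knockouts (VaviCre+Rxrabfl/fl) and floxed controls without Cre (Rxrabfl/fl), each as MPP and as LT-HSC. Batch 2 holds LT-HSC of Vav1Cre+Rxrabfl/fl with a further allele, written Myclfl/+ as the genotype and Myc in the descriptions, LT-HSC of Vav1Cre+Rxrabfl/fl, and LT-HSC of Cre controls with unfloxed genes (Vav1Cre+WT). The Cre is driven by the Vav1 promoter, which is active across blood cells, so no group separates an effect in stem cells from one in other blood cells. The controls of batch 1 carry the floxed alleles and no Cre, while those of batch 2 carry Cre and no floxed allele, and the batches therefore differ in control genotype as well. Cells came from pooled animals, and the animals' age is not given in the labels. The libraries of a group carry different names, but nothing in the labels says that they share no animals, so p-values measure the spread between these libraries, which may be technical.

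Red cells arise from stem cells through progenitors in which GATA1, a zinc finger factor that binds GATA sequences, and KLF1, which binds CACC boxes, switch on the genes of the red cell. The receptor EPOR carries the signal of erythropoietin, which keeps these progenitors alive, through the kinase JAK2. Carbonic anhydrases interconvert carbon dioxide and bicarbonate, and haemoglobin joins alpha chains, encoded by Hba-a1 and Hba-a2, with beta chains, encoded by Hbb-bs and Hbb-bt. A nucleated red cell precursor holds very much globin mRNA. In bulk RNA a smaller number of cells that hold a transcript and a smaller amount in each cell cannot be told apart.

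The stretch before a start of each gene shows how alike the members are there, and whether they carry the letters bound by the factors among them. For the globins it lies outside the gene body, so it does not measure how alike the RNA of the copies is. RefSeq promoters (GRCm38) were found for 7 members, all but Car1 and Car2. The 150 bases before the start used by that promoter table follow, 5′ to 3′ on the gene's strand, with 4 motifs in capitals wherever they match on this strand or, as the reverse complement, on the other. The motif bound by GATA factors was searched as GATAA. The box bound by KLF1 was searched as CACCC. The CCAAT box and the TATA box of core promoters were searched as CCAAT and, for the second, as TATAA.
Klf1, chr8:84901832-84901981, plus strand: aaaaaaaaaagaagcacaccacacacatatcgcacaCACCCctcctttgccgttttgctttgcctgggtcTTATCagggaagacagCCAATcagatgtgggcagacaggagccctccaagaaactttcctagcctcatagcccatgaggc
Gata1, chrX:7967911-7968060, minus strand: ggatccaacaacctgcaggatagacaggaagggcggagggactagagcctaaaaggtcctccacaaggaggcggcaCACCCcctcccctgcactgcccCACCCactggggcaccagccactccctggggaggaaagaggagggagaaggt
Epor, chr9:21963577-21963726, minus strand: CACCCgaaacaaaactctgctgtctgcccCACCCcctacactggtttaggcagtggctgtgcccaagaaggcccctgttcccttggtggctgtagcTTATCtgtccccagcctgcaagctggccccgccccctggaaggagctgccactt
Hba-a1, chr11:32283522-32283671, plus strand: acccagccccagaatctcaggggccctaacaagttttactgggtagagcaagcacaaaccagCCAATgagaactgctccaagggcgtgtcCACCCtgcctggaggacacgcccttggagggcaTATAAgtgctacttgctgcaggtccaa
Hba-a2, chr11:32296342-32296491, plus strand: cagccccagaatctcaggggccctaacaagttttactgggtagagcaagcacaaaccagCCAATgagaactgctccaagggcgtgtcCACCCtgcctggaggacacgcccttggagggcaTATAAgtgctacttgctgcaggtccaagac
Hbb-bs, chr7:103827929-103828078, minus strand: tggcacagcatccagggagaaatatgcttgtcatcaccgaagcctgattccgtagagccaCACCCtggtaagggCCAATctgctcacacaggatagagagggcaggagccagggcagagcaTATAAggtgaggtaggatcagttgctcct
Hbb-bt, chr7:103813924-103814073, minus strand: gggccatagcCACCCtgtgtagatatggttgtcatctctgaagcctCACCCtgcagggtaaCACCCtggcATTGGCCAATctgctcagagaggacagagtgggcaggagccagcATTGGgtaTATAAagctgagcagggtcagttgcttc
All 4 globin stretches held the TATA box, the CCAAT box and the KLF1 box, and Hbb-bt held the last at 3 places. In Hbb-bt a reversed CCAAT box directly precedes a forward one without overlapping it. The GATA motif was found, reversed, in Klf1 and Epor, while Gata1 held the KLF1 box at 2 places and none of the other motifs. Among 32851 RefSeq promoters a match in the same window was found in 13.3% for the GATA motif, 37.4% for the KLF1 box, 24.5% for the CCAAT box and 14.2% for the TATA box. Aligned over these bases, Hba-a1 and Hba-a2 were identical at 96.1% of 153 columns and Hbb-bs and Hbb-bt at 73.7% of 156 columns. The alpha copies shared 147 of 150 bases as 1 unbroken run. Their other columns are gaps at the ends, because the starts used are offset (TATA box at 27 and 30 bases before the start). A match is a description of letters and not a binding site. The stretch shown for Gata1 lies inside the span of the gene given below, because the promoter table uses a start within that span.

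The gene bodies, in GRCm38 coordinates, place the globins as 2 neighbouring pairs. Hba-a1 (ENSMUSG00000069919) lies at chr11:32283672-32284486 and Hba-a2 (ENSMUSG00000069917) at chr11:32296492-32297310. Hbb-bt (ENSMUSG00000073940) lies at chr7:103812524-103813923 and Hbb-bs (ENSMUSG00000052305) at chr7:103826523-103827928. Car1 (ENSMUSG00000027556, chr3:14766214-14808365) and Car2 (ENSMUSG00000027562, chr3:14886269-14900770) are also neighbours. Klf1 (ENSMUSG00000054191) spans chr8:84901982-84905291, Gata1 (ENSMUSG00000031162) chrX:7959260-7976663 and Epor (ENSMUSG00000006235) chr9:21958897-21963576. How alike the transcripts of a globin pair are was not measured here. The split of reads between the copies depends on how the authors' quantification assigned shared reads, and each copy's level is uncertain. The sums of the pairs are therefore given beside the copies.

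The labels were checked first at Rxra. The exon-skipping junction of Rxra had a PSI (the share of junction reads that use it) of 1 and 0.5 in 2 knockout MPP, with no value in the remaining one, against 0 in the floxed control MPP. In batch 1 LT-HSC it was 0.938 in the only knockout library with a value, against 0, 0.1 and 0 in floxed controls. In batch 2 it was 0.647, 0 and 1 in the Myc-allele group and 0, 0.0127 and 0 in the libraries labelled RXR knockout, against 0 in all Cre controls. The 3 libraries labelled RXR knockout in batch 2, and replicate 2 of the Myc-allele group, thus go against their labels at this junction, and every direction drawn from them below is that of the label. Rxrb, the other gene named in the genotype, stood at 6.40, 8.59 and 8.88 TPM in the Myc-allele group and at 12.8, 10.6 and 11.1 TPM in the libraries labelled RXR knockout, against 15.1, 16.03 and 14.5 TPM in Cre controls. Both groups lay below the Cre controls in Rxrb, as their labels have it. In batch 1 knockout MPP lay below floxed MPP too. LT-HSC overlapped there, at 9.30, 9.85 and 12.6 TPM in knockouts, against 14.9, 7.52 and 14.0 TPM in floxed controls. Rxra stood at 1.27, 7.465 and 4.00 TPM in the libraries labelled RXR knockout, overlapping the Cre controls at 4.14, 4.85 and 4.58 TPM. The Myc-allele group lay below those controls in Rxra, at 4.08, 3.09 and 2.13 TPM. Rxra overlapped between the genotypes of batch 1 too. It stood at 3.17, 3.378 and 2.878 TPM in knockout LT-HSC, against 5.168, 3.872 and 2.367 TPM in floxed controls. In MPP it stood at 2.197, 2.091 and 1.771 TPM in knockouts, against 2.016, 2.142 and 2.192 TPM in floxed controls. The overlap of Rxra TPM in batch 2 therefore cannot decide on the labels. Deposited TPM summed to between 691094 and 918942 per library, with 12435 to 14870 genes at 1 TPM or more, and the read depth is unknown. The top identifier of a library took 15.3% to 56.5% of its sum, with the highest share in the second floxed control LT-HSC. Each comparison was therefore also fitted on rescaled TPM, divided by a median-of-ratios size factor per library. Markers listed for the sorted cells, chosen with earlier results of these data known, followed the labels. The 6 MPP markers summed to 721 to 920 TPM in MPP and to 22.1 to 102 TPM in LT-HSC. The 10 LT-HSC markers summed to 132 to 171 TPM in MPP and to 261 to 757 TPM in LT-HSC.

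**Figure D1:**
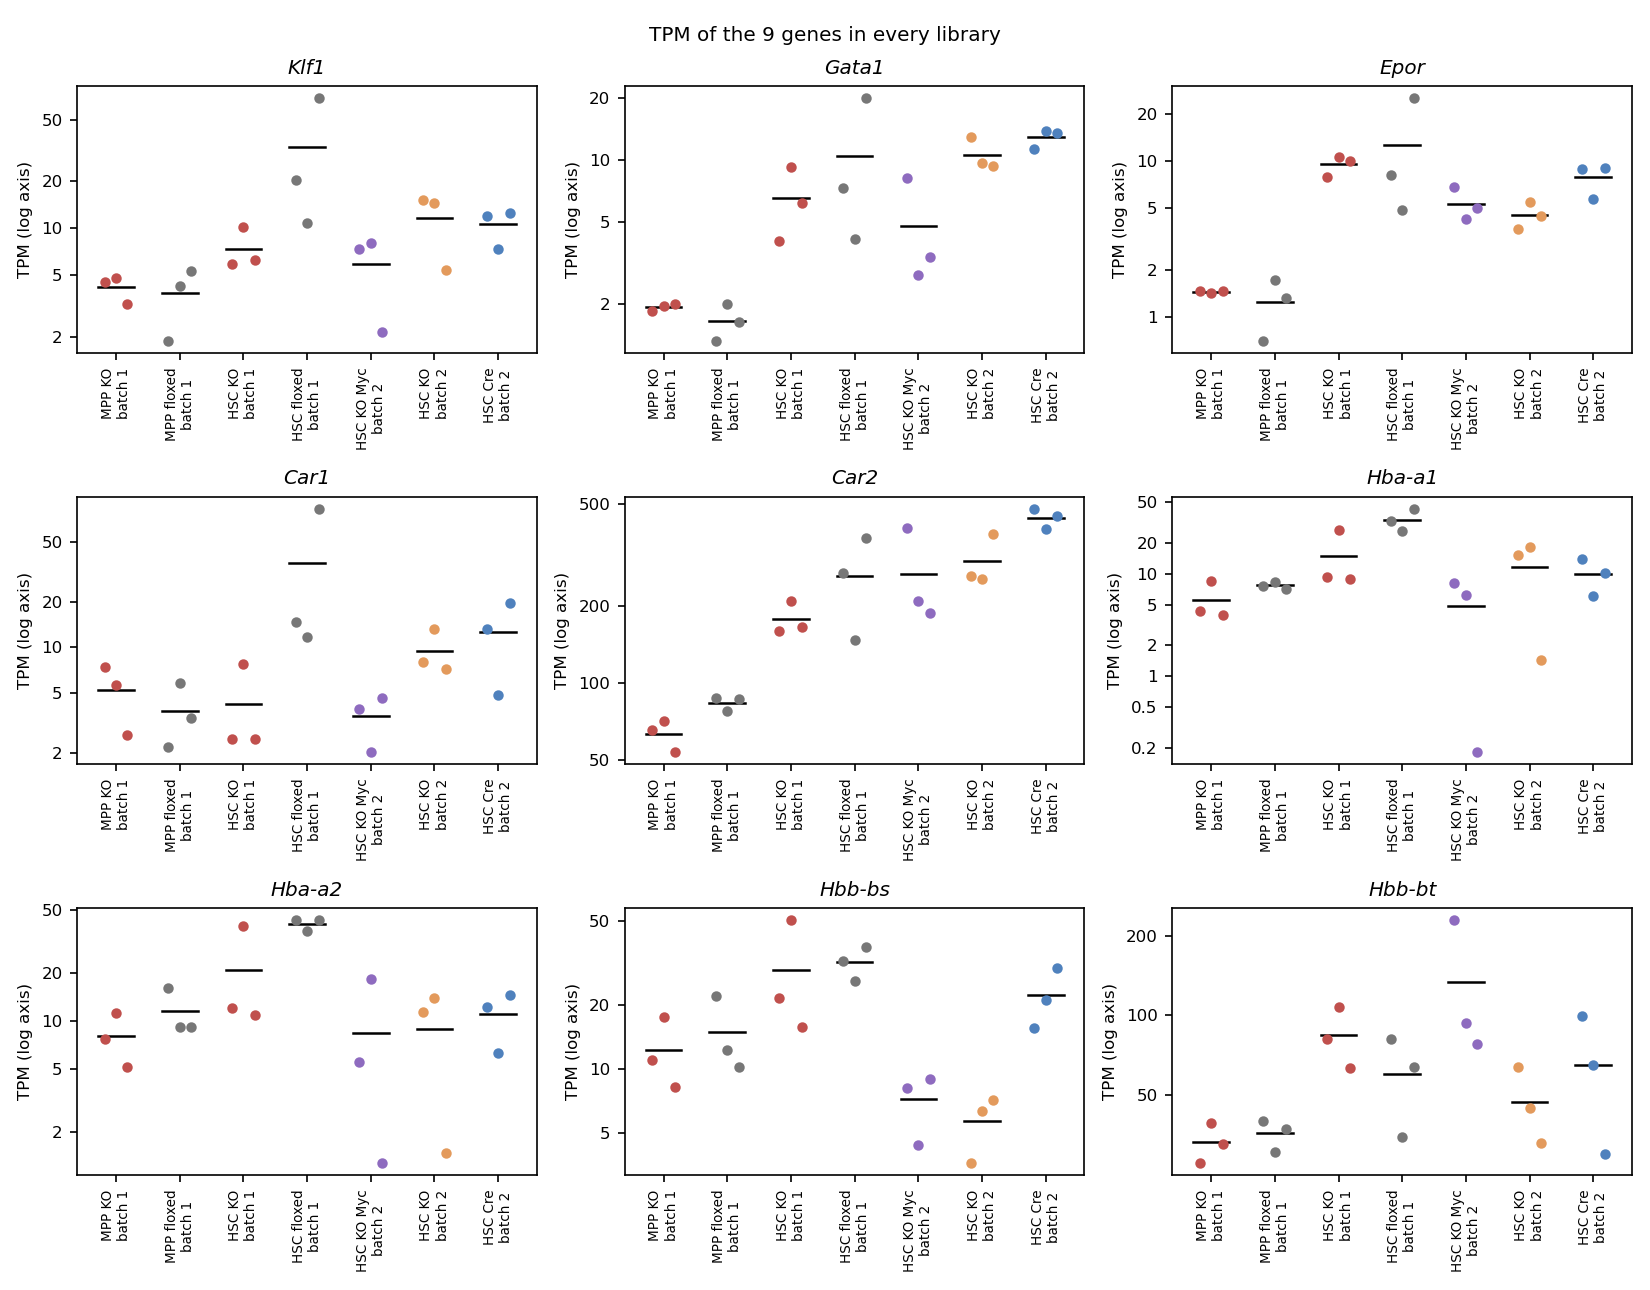
Each point is the TPM of a gene in 1 library on a log axis, and each black line is the mean of the 3 libraries of a group. Klf1, Gata1, Epor and Car1 have their highest point in 1 floxed control LT-HSC, at 68.9, 19.9, 25.2 and 81.8 TPM, while Hba-a2 lies between 36.6 and 43.0 TPM in the 3 floxed control LT-HSC.

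The regulators were low and unevenly expressed in LT-HSC, and lower still in MPP for Gata1 and Epor. In batch 1 Klf1 stood at 4.50, 4.75 and 3.26 TPM in knockout MPP, against 1.89, 4.23 and 5.28 TPM in floxed control MPP. In LT-HSC of that batch it stood at 5.84, 10.1 and 6.21 TPM in knockouts, against 20.4, 10.8 and 68.9 TPM in floxed controls. All 3 knockout LT-HSC were below all 3 floxed controls, and the third floxed library was far above the rest of the series. How many of all genes separate in this way was not counted, here or for the groups without overlap below. In batch 2 Klf1 stood at 7.40, 8.08 and 2.16 TPM in the Myc-allele LT-HSC, at 15.2, 14.5 and 5.41 TPM in those labelled RXR knockout, and at 11.9, 7.37 and 12.6 TPM in Cre controls. These batch 2 groups overlapped, as did every pair of neighbours in the order of the 7 group means of Klf1.

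Gata1 stood at 1.84, 1.95 and 2.00 TPM in knockout MPP, against 1.32, 1.99 and 1.63 TPM in floxed control MPP. Its LT-HSC values were 4.04, 9.25 and 6.14 TPM in batch 1 knockouts, against 7.30, 4.13 and 19.9 TPM in floxed controls. Every LT-HSC library of the series was above every MPP library, and the batch 1 genotypes overlapped within each cell type. In batch 2 Gata1 stood at 8.11, 2.77 and 3.37 TPM in the Myc-allele LT-HSC, at 12.8, 9.58 and 9.36 TPM in those labelled RXR knockout, and at 11.2, 13.8 and 13.5 TPM in Cre controls. All Myc-allele libraries were below all others of that batch.

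Epor followed the same order of cell types. It stood at 1.48, 1.43 and 1.47 TPM in knockout MPP, against 0.71, 1.74 and 1.34 TPM in floxed control MPP, and at 7.88, 10.6 and 9.99 TPM in knockout LT-HSC, against 8.13, 4.82 and 25.2 TPM in floxed control LT-HSC. Again every LT-HSC library of the series was above every MPP library. In batch 2 Epor stood at 6.78, 4.24 and 5.00 TPM in the Myc-allele LT-HSC, at 3.70, 5.43 and 4.47 TPM in those labelled RXR knockout, and at 8.92, 5.67 and 8.97 TPM in Cre controls. The libraries labelled RXR knockout all lay below the Cre controls.

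The carbonic anhydrases differed in level and in pattern. Car1, the form typical of red cells and colon, stood at 7.39, 5.67 and 2.66 TPM in knockout MPP, against 2.199, 5.80 and 3.41 TPM in floxed control MPP. In LT-HSC it stood at 2.50, 7.77 and 2.50 TPM in batch 1 knockouts, against 14.7, 11.8 and 81.8 TPM in floxed controls. Those groups did not overlap, and the knockout LT-HSC were within the range of the MPP apart from 1 library above it. In batch 2 Car1 stood at 3.95, 2.05 and 4.61 TPM in the Myc-allele LT-HSC, at 8.01, 13.3 and 7.21 TPM in those labelled RXR knockout, and at 13.3, 4.88 and 19.8 TPM in Cre controls.

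Car2, a widely expressed carbonic anhydrase that is also abundant in red cells and osteoclasts, had the highest TPM of the 9 genes in all 7 groups. It stood at 65.6, 71.1 and 54.1 TPM in knockout MPP, against 87.8, 77.7 and 86.6 TPM in floxed control MPP, 2 groups that did not overlap. In LT-HSC it stood at 160, 208 and 166 TPM in batch 1 knockouts, against 269, 147 and 368 TPM in floxed controls. In batch 2 it stood at 402, 210 and 188 TPM in the Myc-allele LT-HSC, at 261, 254 and 381 TPM in those labelled RXR knockout, and at 477, 397 and 447 TPM in Cre controls. The Cre controls were above both other batch 2 groups except for the highest Myc-allele library, which lay within their range.

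By group mean Hba-a1, Hba-a2 and Hbb-bs were highest in floxed control LT-HSC and Hbb-bt in the Myc-allele LT-HSC, where 1 library of 229 TPM stood above the others at 93.3 and 77.7 TPM. Summed, Hba-a1 and Hba-a2 averaged 13.6 ± 5.48 TPM in knockout MPP and 19.1 ± 4.00 TPM in floxed control MPP (SD, n = 3 each). In batch 1 LT-HSC the alpha sum averaged 35.7 ± 26.3 TPM in knockouts and 74.5 ± 11.6 TPM in floxed controls (SD, n = 3 each). The single values were 21.4, 66.1 and 19.8 TPM in knockouts, against 75.4, 62.5 and 85.6 TPM in floxed controls. One knockout library lay within the range of the floxed controls and the others far below it. In batch 2 the alpha sum averaged 13.2 ± 11.6 TPM in the Myc-allele LT-HSC, 20.5 ± 15.5 TPM in those labelled RXR knockout and 21.0 ± 7.54 TPM in Cre controls (SD, n = 3 each). The third Myc-allele library held 1.47 TPM and the third one labelled RXR knockout 2.91 TPM, both below every other library of the series.

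Among the alpha copies, Hba-a1 stood at 9.34, 26.7 and 8.92 TPM in batch 1 knockout LT-HSC, against 32.4, 25.9 and 42.7 TPM in floxed controls. Hba-a2 stood at 12.01, 39.3 and 10.9 TPM in knockouts, against 43.0, 36.6 and 42.9 TPM in floxed controls. In both copies the second knockout library reached the floxed controls while the other two lay far below. The other red cell and embryonic globins on a list of 9, of which 6 were in the table (Hba-x, Hbb-y, Hbb-bh1, Hbb-bh2, Hbq1a and Hbq1b), summed to at most 0.818 TPM in any library, and none passed the filter on low values.

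The beta copies differed in their order over the groups. Hbb-bt averaged 133 ± 83.4 TPM in the Myc-allele LT-HSC, 47.1 ± 15.7 TPM in those labelled RXR knockout and 64.7 ± 34.8 TPM in Cre controls (SD, n = 3 each). Hbb-bs stood at 8.16, 4.37 and 9.00 TPM in the Myc-allele LT-HSC, at 3.61, 6.32 and 7.15 TPM in those labelled RXR knockout, and at 15.6, 21.3 and 30.0 TPM in Cre controls. All Cre controls were above all other batch 2 libraries in Hbb-bs, while in Hbb-bt the Myc-allele group was the highest and overlapped the Cre controls. In batch 1 LT-HSC Hbb-bs stood at 21.7, 50.7 and 15.8 TPM in knockouts, against 32.5, 26.2 and 37.8 TPM in floxed controls. Hbb-bt stood at 81.3, 108 and 63.4 TPM in knockouts, against 81.6, 34.7 and 63.9 TPM in floxed controls. Both copies overlapped between those genotypes. In MPP the beta sum was 45.5 ± 9.80 TPM in knockouts and 50.8 ± 10.1 TPM in floxed controls (SD, n = 3 each).

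The balance of the globin chains differed by group as well. Beta TPM divided by alpha TPM was 4.83, 2.40 and 4.00 in batch 1 knockout LT-HSC, against 1.51, 0.974 and 1.19 in floxed controls, without overlap. In MPP the ratio was 3.22, 2.89 and 4.52 in knockouts, against 2.62, 2.45 and 2.91 in floxed controls, which overlapped. In batch 2 it was 17.4, 3.98 and 59.2 in the Myc-allele LT-HSC, 2.56, 1.58 and 13.8 in those labelled RXR knockout, and 4.41, 6.97 and 2.43 in Cre controls. Hbb-bs made up 3.44%, 4.48% and 10.4% of the beta pair in the Myc-allele LT-HSC and 5.33%, 12.4% and 17.9% in those labelled RXR knockout, against 13.5%, 24.7% and 50.2% in Cre controls. In batch 1 LT-HSC its share was 21.1%, 31.9% and 19.9% in knockouts, against 28.5%, 43.0% and 37.2% in floxed controls. These ratios were not tested, and they depend on how reads shared by the copies were assigned.

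The spread between control libraries was wide for the regulators in batch 1 and for the globins in batch 2. In floxed control LT-HSC the SD of log2(TPM + 1) was 1.48 for Car1, 1.31 for Klf1, 1.12 for Epor and 1.029 for Gata1. Genes of a like level (mean within 0.5 on that scale) had a median SD of 0.385 beside Klf1 and Car1. Of the globins, Hba-a2 had an SD of 0.131, Hbb-bs of 0.258 and Hba-a1 of 0.351, all below the median of genes at their level (0.405 to 0.413), while Hbb-bt had 0.624. These SDs are of deposited TPM. On rescaled TPM Hba-a1 was at the median of its level (both 0.237) and Hbb-bt had 0.314, while Klf1 and Car1 kept 1.13 and 1.37. In Cre control LT-HSC Gata1 and Car2 had SDs of 0.154 and 0.132, close to the median of 0.154 over all genes, while Hbb-bt reached 0.864, Hba-a2 0.575, Hba-a1 0.539 and Hbb-bs 0.453. Car1 was variable there too, with an SD of 0.934. One floxed control LT-HSC library, the third, held the highest value of 7 of the 9 genes, and the second held the lowest value of all 9. Among batch 1 knockout LT-HSC the second library was the highest for all 9. These ranks are of deposited TPM, and the size factors were 0.62 for the second floxed control and 1.41 for the second knockout. On rescaled TPM the second floxed control was the highest for Hba-a2 (59.1 TPM, against 45.8 and 48.5 TPM). The second knockout was there not the highest for Car2 (147.8 TPM, against 149.9 TPM in the first).

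**Figure D2:**
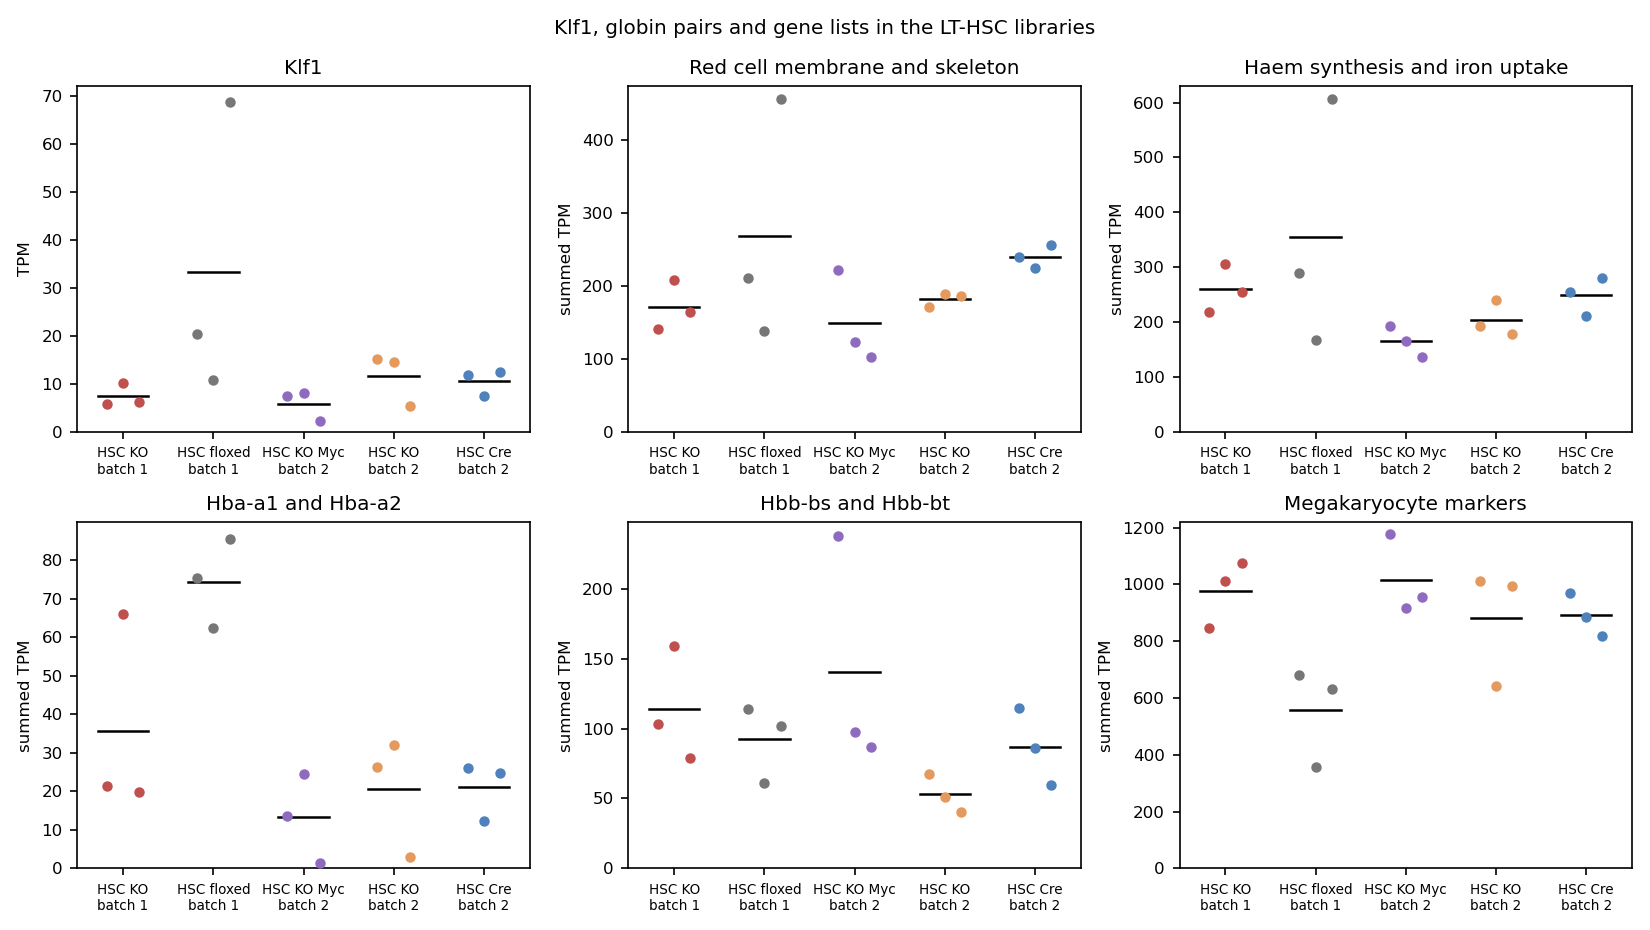
TPM of Klf1 and summed TPM of 2 globin pairs and 3 gene lists in the 15 LT-HSC libraries. Points are libraries and black lines are means of 3. The third floxed control stands apart for Klf1 (68.9 TPM), the membrane list (457 TPM) and the haem list (607 TPM), but not for the beta globins or the megakaryocyte markers.

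RXR knockout was compared with floxed control in LT-HSC of batch 1 to ask what changes with the loss of RXR in stem cells. The knockouts carry Cre and the floxed controls do not. Loss of RXR and presence of Cre therefore cannot be told apart in batch 1, in LT-HSC or in MPP. Klf1, Car1 and both alpha globins were lower in knockouts. The log2 change was -1.67 (SE 0.471, adjusted p = 0.0149) for Klf1 and -2.42 (SE 0.573, adjusted p = 0.00816) for Car1. It was -1.26 (SE 0.345, adjusted p = 0.0131) for Hba-a1 and -1.18 (SE 0.384, adjusted p = 0.0252) for Hba-a2. Here and below the test is limma on log2(TPM + 1), adjusted by Benjamini-Hochberg over all genes tested, and a gene is called at an adjusted p under 0.05. Thus 4 of 9 were called lower, where 0.58% of the 14839 genes tested were. Summed, the alpha copies changed by -1.25 (adjusted p = 0.0174). The members' median was -0.46, beside a median of 0.52 over all genes.

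The other 5 did not pass. Gata1 changed by -0.42 (adjusted p = 0.34), Epor by -0.10 (adjusted p = 0.828), Car2 by -0.46 (adjusted p = 0.152), Hbb-bs by -0.28 (adjusted p = 0.522) and Hbb-bt by 0.53 (adjusted p = 0.119). On rescaled TPM Car2 was lower too, with a log2 change of -1.12 and an adjusted p of 0.0169. That scale called 5 of 9 lower, beside 2.47% of all genes, and it took Hbb-bt to -0.11 (adjusted p = 0.742). Hence the direction of Hbb-bt, and of the beta sum (0.29 deposited, -0.36 rescaled), depends on the scale.

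Single libraries carry part of this difference. Without the third floxed control the same 4 genes were called, with smaller changes of -0.95 for Klf1 and -1.57 for Car1, and Gata1 and Epor stood at 0.14 and 0.52. Without the third knockout Car1 alone was called, and on rescaled TPM none was. In that fit Klf1 changed by -1.58 (adjusted p = 0.0558) and Hba-a1 by -1.01 (adjusted p = 0.0655). Hba-a2 lost its call without the first or second floxed control or without the first or the third knockout, at adjusted p of 0.053 to 0.111. Leaving out the first floxed control called Hbb-bt higher (0.79, adjusted p = 0.0325), and leaving out the second called Car2 lower (-0.83, adjusted p = 0.017). Shares of all genes called are not given for the fits with 1 library left out.

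**Figure D3:**
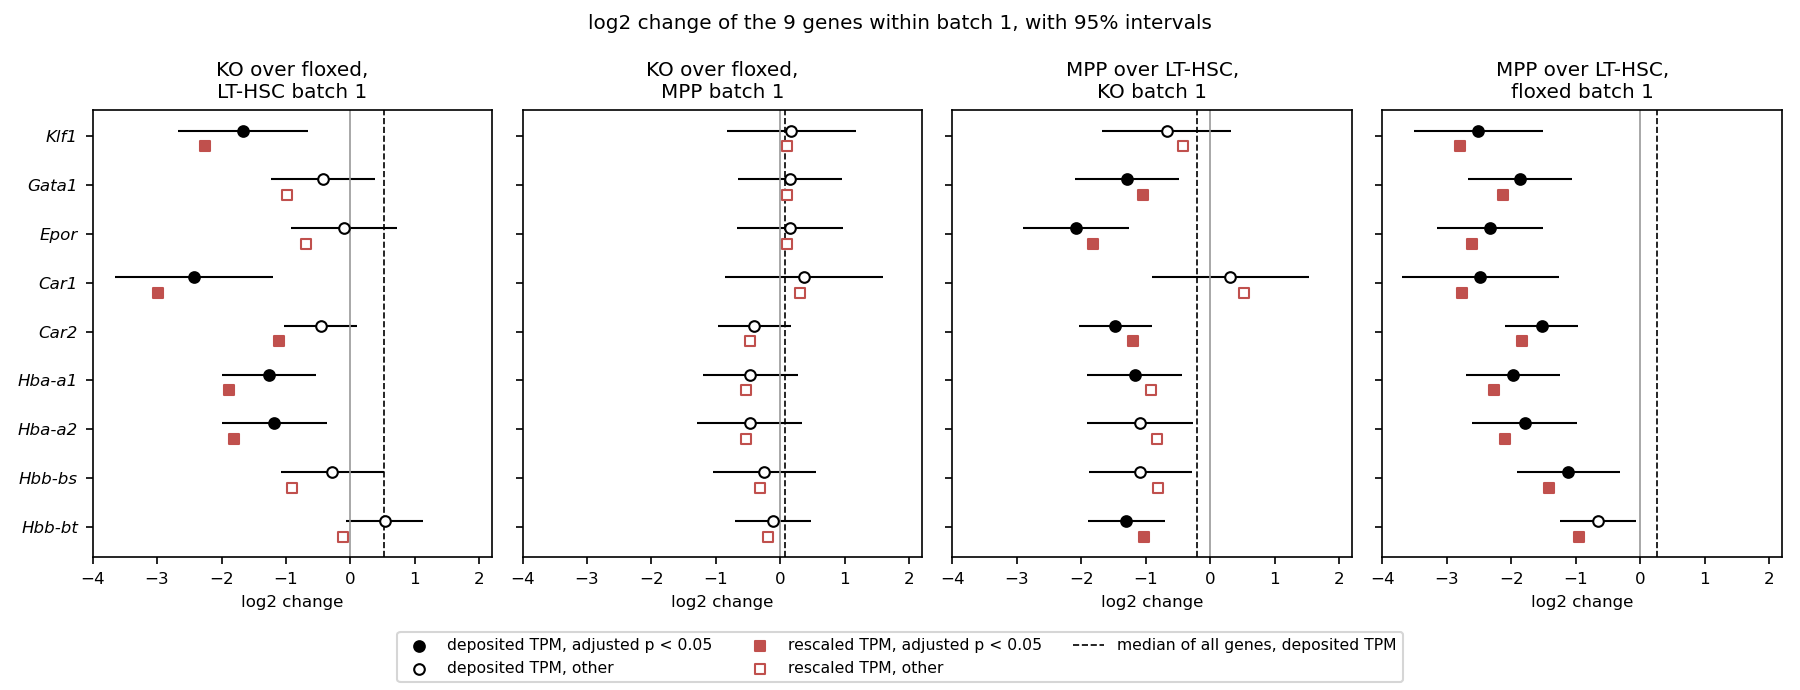
Points are log2 changes of the 9 genes, black on deposited TPM with 95% intervals and red on rescaled TPM, filled where the adjusted p was under 0.05. The dashed line is the median of all genes on deposited TPM. In LT-HSC 4 genes are called lower in knockouts, in MPP none is, and the MPP over LT-HSC changes of Klf1 and Car1 are -2.51 and -2.48 in floxed controls, against -0.68 and 0.31 in knockouts, a difference that was called with the pool as a block and not without it.

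Other red cell genes were counted by lists written for these cell types. In this contrast 0.58% of all genes were called lower and 44.6% higher on deposited TPM. Of 18 tested genes of the red cell membrane and skeleton, 10 were lower and 1 higher in knockout LT-HSC, with a median log2 change of -0.96. Kel, a blood group protein, was lower, at 3.81 ± 2.75 TPM in knockouts and 18.5 ± 18.1 TPM in floxed controls (SD, n = 3 each, log2 change -1.77, adjusted p = 0.0226). Rhd, the Rh blood group antigen, changed by -1.70 (adjusted p = 0.0174) and Add2, a skeleton protein, by -1.56 (adjusted p = 0.00881). The spread of these genes was wide in floxed controls, where the SD of Kel and of Rhd was about as large as the mean. On rescaled TPM 10 were lower and none higher, beside 2.47% of all genes lower and 2.2% higher. Tmod1, which caps actin filaments, was the gene called higher (0.78, adjusted p = 0.0263), and its rescaled change was 0.29 (adjusted p = 0.375).

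Of 11 other genes of red cell precursors 5 were lower and 2 higher, beside the same shares of all genes on deposited TPM. Cldn13, a claudin of red cell precursors in mice, stood at 3.32 ± 2.10 TPM in knockouts and 17.9 ± 16.5 TPM in floxed controls (SD, n = 3 each, log2 change -1.83, adjusted p = 0.0133). Atp1b2, a sodium pump subunit, changed by -1.89 (adjusted p = 0.00987), Smim1, the Vel blood group protein, by -1.38 (adjusted p = 0.0272) and Ctse, cathepsin E, by -1.27 (adjusted p = 0.0214). Of the genes of haem synthesis and iron uptake 2 of 16 were lower and 1 higher, beside 0.58% of all genes called lower and 44.6% called higher. Cpox, coproporphyrinogen oxidase, changed by -0.82 (adjusted p = 0.0369), and Steap3, the ferrireductase of iron uptake, by -0.92 (adjusted p = 0.0265). Alas2, the first enzyme of haem synthesis in red cells, was higher, at 11.8 ± 6.59 TPM in knockouts and 4.37 ± 1.54 TPM in floxed controls (SD, n = 3 each, log2 change 1.11, adjusted p = 0.0273), but its rescaled change of 0.53 did not pass (adjusted p = 0.379).

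Of all genes 44.6% were called higher in this contrast on deposited TPM. Of 19 other transcription regulators of red cells 9 were called higher and none lower, and of 14 genes of erythropoietin receptor signalling 6 were called higher and none lower, shares near that of all genes. Gata2, the GATA factor of stem and progenitor cells, stood at 100 ± 10.4 TPM in knockouts and 57.1 ± 17.4 TPM in floxed controls (SD, n = 3 each, log2 change 0.84, adjusted p = 0.0167). Bcl11a, a repressor of globin genes, changed by 0.87 (adjusted p = 0.0123), and Ptpn6, a phosphatase that ends the receptor's signal, by 1.07 (adjusted p = 0.0099). None of these 15 was called higher on rescaled TPM, where 2.2% of all genes were, and 1 regulator was called lower there, where the median of all genes was -0.03. Of 6 other carbonic anhydrases tested 3 were higher, and 1 was on rescaled TPM.

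Markers of other cell types are given here for the same contrast, beside the 44.6% of all genes called higher on deposited TPM. The 12 neutrophil markers summed to 400 to 1698 TPM in knockout LT-HSC and to 148 to 202 TPM in floxed controls, and 8 of 11 tested were called higher. The eosinophil, basophil and mast cell list of 16 summed to 31.3 to 74.4 TPM in knockouts and to 6.60 to 12.6 TPM in floxed controls, with 6 of 11 called higher. B cell markers summed to 368 to 894 TPM in knockouts and to 10.8 to 218 TPM in floxed controls, with 2 of 8 called higher. Monocyte and macrophage markers, with 4 of 5 called higher, summed to 260 to 300.4 TPM in knockouts and to 103 to 190 TPM in floxed controls, and those of T and NK cells, with 2 of 4 called higher, to 18.8 to 32.7 TPM in knockouts and to 9.38 to 26.3 TPM in floxed controls. Megakaryocyte markers summed to 848 to 1074 TPM in knockouts and to 356 to 680 TPM in floxed controls, with 7 of 14 called higher. Of the markers of the sorted cells, 9 of 10 LT-HSC markers and 1 of 6 MPP markers were called higher. On rescaled TPM no marker of neutrophils, of B cells or of T and NK cells was called, while 2 of the eosinophil, basophil and mast cell list, 2 of megakaryocytes and 1 of monocytes and macrophages were higher. The part of these cells in the changes of the 9 genes was not tested.

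In MPP no member was called between knockout and floxed control, and none had an unadjusted p under 0.05 in limma, where 0.323% of all genes were called in either direction. The changes ran from -0.48 for Hba-a2 to 0.37 for Car1, all with an adjusted p of 1. Klf1 changed by 0.17 (95% interval -0.84 to 1.17), and Car1 had an interval of -0.86 to 1.59, so the error is wide in both directions. Car2, whose groups did not overlap, changed by -0.40 (95% interval -0.97 to 0.16). None of the genes on the lists of regulators, receptor signalling, membrane, haem and precursor genes was called either. The neutrophil markers summed to 1812 to 3146 TPM in knockout MPP and to 654 to 2141 TPM in floxed control MPP.

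The difference of the knockout effect between the cell types, MPP minus LT-HSC, was 1.84 for Klf1 (95% interval 0.42 to 3.26, adjusted p = 0.131) and 2.79 for Car1 (95% interval 1.06 to 4.52, adjusted p = 0.104). No member passed, beside 0.0809% of all genes, and these were the 2 members with an unadjusted p under 0.05 in limma. Of 14839 genes, 47 had such an unadjusted p with a difference above 0, and 3844 with one below 0. With the pool as a block both were called, at adjusted p of 0.0482 for Klf1 and 0.0446 for Car1, beside 9.04% of all genes. That fit took the floxed pools as pairs as well as the knockout pools, and the correlations given below leave the pairing uncertain. Whether the effect differs between the cell types thus depends on the fit. All-gene changes shifted by a median of -0.45 in this contrast.

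MPP were compared with LT-HSC in each genotype to ask how the genes differ between the cell types. In floxed controls 8 of 9 members were lower in MPP, where 5.62% of all genes were called lower. Klf1 changed by -2.51 (SE 0.471, adjusted p = 0.00166), Gata1 by -1.87 (SE 0.378, adjusted p = 0.00288) and Epor by -2.33 (SE 0.384, adjusted p = 0.000586). Car1 changed by -2.48 (adjusted p = 0.00696) and Car2 by -1.53 (adjusted p = 0.000915). Among the globins Hba-a1 changed by -1.97 (adjusted p = 0.000938), Hba-a2 by -1.79 (adjusted p = 0.00421) and Hbb-bs by -1.12 (adjusted p = 0.046). Hbb-bt, at -0.65 (adjusted p = 0.105), passed on rescaled TPM only (-0.95, adjusted p = 0.00429), where all 9 were lower beside 12.7% of all genes. Hbb-bs was the weakest call and was lost in 5 of 6 fits that left out 1 library, at adjusted p of 0.0675 to 0.154. Leaving out the third floxed LT-HSC took Car1 to -1.63 (adjusted p = 0.0132).

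In knockouts 5 of 9 were lower in MPP, beside 15.5% of all genes. Gata1 changed by -1.29 (adjusted p = 0.0251), Epor by -2.09 (adjusted p = 0.00112), Car2 by -1.47 (adjusted p = 0.000988), Hba-a1 by -1.17 (adjusted p = 0.0254) and Hbb-bt by -1.30 (adjusted p = 0.00353). Klf1 changed by -0.68 (95% interval -1.68 to 0.33, adjusted p = 0.357) and Car1 by 0.31 (95% interval -0.91 to 1.53, adjusted p = 0.758). Hba-a2, at -1.09, and Hbb-bs, at -1.08, had adjusted p of 0.0602 and 0.0549. The MPP and LT-HSC libraries of a knockout pool were taken as pairs, and with the pool as a block 7 of 9 were lower, beside 20.9% of all genes. The 2 added were Hba-a2 (adjusted p = 0.00597) and Hbb-bs (adjusted p = 0.00673). On rescaled TPM 4 were called, beside 11.3% of all genes, since Hba-a1 missed the threshold (-0.91, adjusted p = 0.0501). Leaving out the second knockout LT-HSC, or the first or the third knockout MPP, left 3 calls.

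The lists of other red cell genes differed in how many of their genes were lower in MPP, beside 15.5% of all genes in knockouts and 5.62% in floxed controls. In floxed controls 15 of 18 membrane and skeleton genes were lower in MPP and none higher, with a median of -1.43, while in knockouts 6 were lower. Aqp1, the water channel of the red cell membrane, stood at 3.13 ± 0.884 TPM in knockout MPP and 14.6 ± 3.40 TPM in knockout LT-HSC, and at 3.07 ± 0.756 TPM in floxed MPP and 35.0 ± 27.4 TPM in floxed LT-HSC (SD, n = 3 each). Its log2 change was -1.92 in knockouts (adjusted p = 0.00183) and -2.90 in floxed controls (adjusted p = 6.72e-05). Of the other regulators 9 of 19 were lower in knockouts and none higher, and 5 were lower and 2 higher in floxed controls, where 15.5% of all genes were higher. Zfpm1, the cofactor of GATA1, changed by -1.87 in knockouts (adjusted p = 1.21e-05) and -1.83 in floxed controls (adjusted p = 1.81e-05), and Gfi1b, a repressor of red cell and megakaryocyte progenitors, by -1.76 in knockouts (adjusted p = 0.0017) and -1.81 in floxed controls (adjusted p = 0.00172). Of haem genes none was lower in knockouts and 4 of 16 in floxed controls, and of the precursor genes 4 of 11 in knockouts and 7 in floxed controls. Receptor signalling had 5 of 14 lower in knockouts, and 3 lower and 1 higher in floxed controls. Megakaryocyte markers, which share regulators with red cells, were lower in 12 of 14 genes in knockouts and 11 in floxed controls. B cell markers summed to 746 to 6100 TPM in knockout MPP and to 2162 to 12100 TPM in floxed control MPP, against at most 894 TPM in batch 1 LT-HSC, and their part in the members' levels was not tested.

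Batch 2 asked the same question with Cre controls. Between LT-HSC labelled RXR knockout and Cre controls no member was called, beside 0.0744% of all 13445 genes tested. Hbb-bs alone of the members had an unadjusted p under 0.05 in limma, as had 126 higher and 490 lower genes of all. Hbb-bs changed by -1.79 (SE 0.362, 95% interval -2.57 to -1.02, limma's adjusted p = 0.263), with groups that did not overlap. Klf1 changed by 0.05 (95% interval -0.95 to 1.04) and Car1 by -0.24 (95% interval -1.20 to 0.72).

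Between Myc-allele LT-HSC and Cre controls no member was called, beside 0.104% of all genes, and 5 had an unadjusted p under 0.05 in limma. Of 13445 genes, 371 higher and 896 lower ones had such an unadjusted p. Gata1 changed by -1.38 (adjusted p = 0.376), Car1 by -1.45 (adjusted p = 0.503), Hbb-bs by -1.51 (adjusted p = 0.337) and Hbb-bt by 1.02 (adjusted p = 0.503). The fifth was Car2. All Myc-allele libraries were below all Cre controls in Gata1, Car1 and Hbb-bs, but how many of all genes separate in this way was not counted. Without the first Myc-allele library Gata1 (-1.77, adjusted p = 0.0179), Car2 and Hbb-bs (-1.62, adjusted p = 0.0372) were called. The share of all genes called in that fit is not given, so these calls cannot be set against it. Against the LT-HSC labelled RXR knockout, no member and 0% of all genes were called, and 3 members had an unadjusted p under 0.05 in limma. So had 324 higher and 223 lower genes of all those tested. Gata1 changed by -1.11, Car1 by -1.21 and Hbb-bt by 1.36, each with an adjusted p of 1. The comparisons with Cre controls share those 3 libraries.

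With both batches in 1 fit and batch as a term, no member was called, beside 0.421% of 14492 genes, and 5 had an unadjusted p under 0.05 in limma. Of all genes, 2054 higher and 139 lower ones had such an unadjusted p. Klf1 changed by -0.81 (adjusted p = 0.32), beside -1.67 in batch 1 alone and 0.05 in batch 2 alone. Car1 changed by -1.33 (adjusted p = 0.143), beside -2.42 in batch 1 and -0.24 in batch 2. Hbb-bs changed by -1.04 (adjusted p = 0.0962), beside -0.28 in batch 1 and -1.79 in batch 2. The difference of the effect, batch 1 minus batch 2, was -1.71 for Klf1 (adjusted p = 0.0872), -2.18 for Car1 (adjusted p = 0.0785) and 1.51 for Hbb-bs (adjusted p = 0.0684). None passed, beside 1.27% of all genes, and these 3 were the members with an unadjusted p under 0.05 in limma. Of the 14492 genes, 5785 had such an unadjusted p with a difference above 0, and 61 with one below 0. Without the third LT-HSC labelled RXR knockout Klf1 (-2.15, adjusted p = 0.0284), Hba-a1 and Hbb-bs (1.68, adjusted p = 0.0281) were called, and without the first floxed control Car1 was (-2.54, adjusted p = 0.0498). For these fits with 1 library left out the share of all genes called is not given. Batch, control genotype and the state of Rxra in these libraries change together and cannot be told apart.

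Within the LT-HSC the genes whose levels were most like those of Klf1 were mostly red cell genes. Over the 15 libraries, which share the TPM scale and the amplification, the highest Pearson r of log2(TPM + 1) with Klf1 among 14806 genes was 0.965 for Ermap, an adhesion protein of red cells. Among the next were Add2 (0.963), the mitochondrial carrier Slc25a21 (0.961), the amino acid transporter Slc38a5 (0.948), Cldn13 (0.927), Atp1b2 (0.926), Rhd (0.922), the transporter Abcg4 (0.92) and Ank1 (0.903), which encodes the ankyrin of red cells. All of these named genes were highest in the third floxed control. Ermap stood at 6.30, 15.9 and 10.5 TPM in batch 1 knockouts, against 16.1, 12.9 and 82.3 TPM in floxed controls. Of the members, Car1 had an r of 0.835, Hba-a1 0.825, Hba-a2 0.732, Gata1 0.634, Epor 0.616, Hbb-bs 0.358, Car2 0.321 and Hbb-bt -0.10. After subtraction of group means the leading genes included Slc38a5 (0.982), Rhd (0.971), Ermap (0.954), Slc16a10 (0.954), St3gal5 (0.951), Slc25a21 (0.948), Add2 (0.941), Mrpl28 (0.94) and Fignl1 (0.936), and all of these but Fignl1 were highest in the third floxed control.

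The 4 globins summed had other genes nearest to them. Their most similar genes over the same 15 libraries were the pseudogene Rpl21-ps6 (r 0.806), 9430002A10Rik (0.772) and Gm14861 (0.757), and the first member was Hbb-bt (0.74), which is part of the sum. After subtraction of group means they were Dscc1 (0.918), Xylb (0.907) and Pheta1 (0.902), with Hbb-bt at 0.873 and Hba-a1 at 0.84. None of the genes named for Klf1 is among the 10 nearest to the globins on either measure.

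The deposited splicing table has 9 events in the members, and 7 of them are junctions between the copies of a globin pair, which that table types as trans-splicing. The share of reads from exon 2 of Hba-a1 (chr11:32284128) to exon 3 of Hba-a2 (chr11:32297080) was 0.303 to 0.412 in the Myc-allele LT-HSC, 0.276 to 0.304 in those labelled RXR knockout and 0.261 to 0.312 in Cre controls. It was 0 in all 12 libraries of batch 1. From exon 2 of Hbb-bs (chr7:103827448) to exon 3 of Hbb-bt (chr7:103812784) the share was 0.351 to 0.376 in the Myc-allele LT-HSC, 0.358 to 0.389 in those labelled RXR knockout and 0.306 to 0.38 in Cre controls, and again 0 in batch 1. The junction within Hba-a1 at the same exon took 0.412 to 0.522 in batch 2 and 1 in batch 1. The groups of batch 2 overlapped in each of these, and no globin event was called in any comparison. The batches did not overlap in any of the 7 events, and over the whole table that held for 62.5% of 602 trans-splicing events, 1.26% of 16240 intron retention events and 3.44% of all 27278 events with a value in every library. What separates the batches in the reads between copies was not tested. The likeness over 15 libraries and the fits over both batches use the single copies of both batches, so this difference stands beside their values for the globins.

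**Figure D4:**
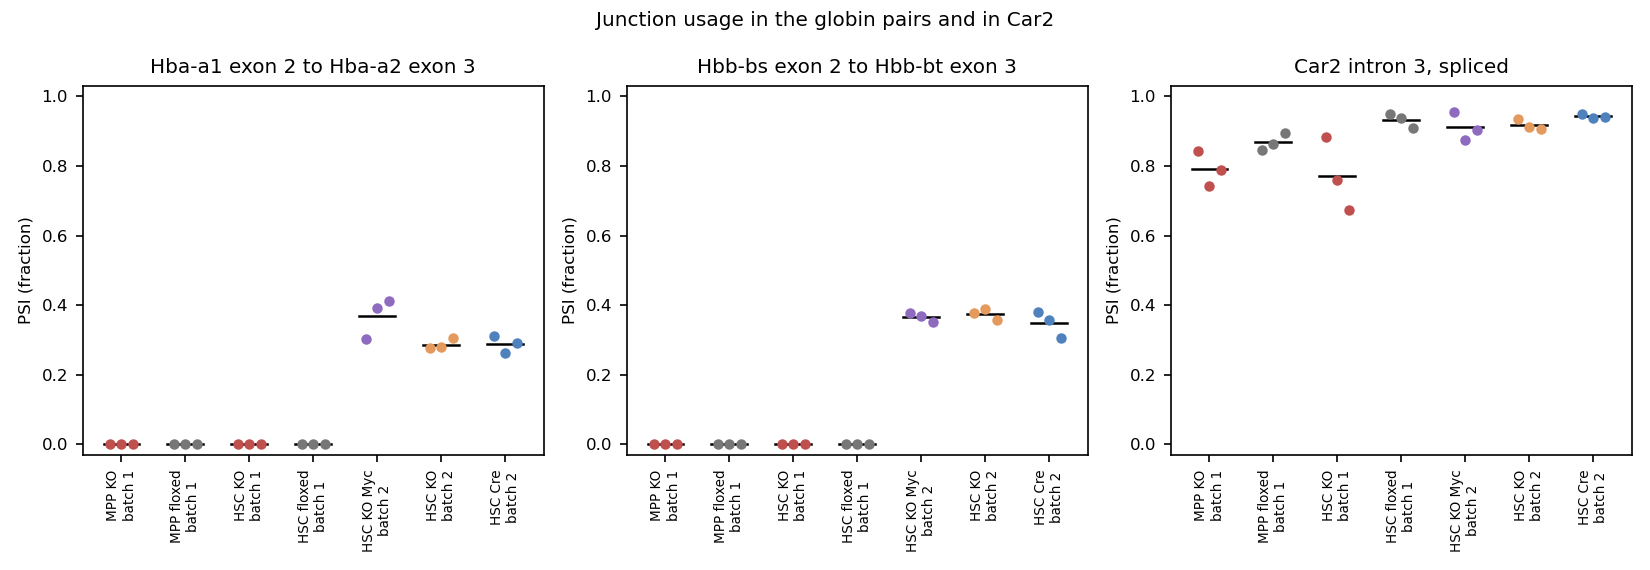
PSI of 2 cross-copy globin junctions and of spliced Car2 intron 3 in every library, with black lines at group means. Cross-copy junctions are at 0 in batch 1 and at 0.261 to 0.412 in batch 2. Spliced Car2 is lower in batch 1 knockouts than in floxed controls in both cell types, and neither difference was called.

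Car2 also had a splicing event of its own, the splicing of intron 3 (chr3:14895140-14895535) against its retention. Spliced reads made up 0.885, 0.759 and 0.672 in batch 1 knockout LT-HSC, against 0.95, 0.937 and 0.91 in floxed controls. In MPP they made up 0.842, 0.743 and 0.789 in knockouts, against 0.846, 0.862 and 0.895 in floxed controls. Neither pair of groups overlapped, so retention was higher in each knockout library than in each floxed control of its cell type. The nearest libraries in MPP were at 0.842 and 0.846. How many of all events separate in this way was not counted. The difference was -0.16 in LT-HSC (SE 0.0491, limma's adjusted p = 0.289 over 39715 events) and -0.076 in MPP (adjusted p = 0.728), and neither was called, beside 0.166% of all events in LT-HSC and 0.199% in MPP. In batch 2 spliced reads made up 0.874 to 0.954 in the Myc-allele LT-HSC and 0.906 to 0.936 in those labelled RXR knockout, against 0.938 to 0.951 in Cre controls. Epor had 1 event, at intron 6, with a value in 14 libraries only.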

How the data were processed

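RNA from pooled, lineage-negative, sorted marrow cells (5 ng) was amplified with the Ovation kit and sequenced on a NovaSeq, paired-end, per the labels' protocols. The deposited TPM of 28987 genes were made by the authors; the submitters' processing notes name kallisto, STAR 2.6 and mm10. The deposited fraction values are PSI of 46443 splicing events, per the file headers. TPM keep no depth, so no counting interval is given, and strand use is not given in the sources used here.

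The test was limma 3.58.1 (R 4.3.3, eBayes with trend) on log2(TPM + 1) of genes that reached 1 TPM in 3 or more of the fitted libraries, a scale that understates changes of low genes. P-values were adjusted by Benjamini-Hochberg over all genes, with a threshold of 0.05. Batch 1 and batch 2 were fitted apart, except where both are named. PSI were tested with limma without trend, over events with a value in every library of the fit. The fit was tested on simulated data. Tables and figures used Python 3.11.15, pandas 2.3.3, numpy 2.4.6, Biopython 1.88 and matplotlib 3.10.9.

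The members and the 15 lists (192 genes, 189 measured) were chosen with earlier results of these data known. Genes named from a list are among the 4 with the largest log2 change per comparison and direction that passed the test, and likeness names genes among the 10 nearest; 1 gene that the rule picks is not reported here. Genes named for their spread or as examples follow from these. MPP and LT-HSC libraries share pool names in the descriptions. Their deviations from the group means correlated at 0.541, 0.158 and 0.274 in the knockout pools and at 0.075, 0.05 and 0.081 in the floxed pools. The fits with the pool as a block took both kinds of pool as pairs, and the main fits took neither. Libraries of unlike pools correlated at up to 0.226 in knockouts, above the 0.158 of the second pool, and at up to 0.075 in floxed controls. The pairing is therefore uncertain. Alternatives were rescaled TPM, TPM without the identifier ENSMUSG00000089855, a pseudocount of 0.1, no filter, a fit of the compared groups alone, a replicate block and leaving out each library. Summed copies, and rescaling with a library left out, were added after seeing the data.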

Additional observations from a re-analysis of the deposited data

How the results depend on the processing

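Read depth is unknown, 3 libraries a group limit every comparison, and some labels of batch 2 are in doubt at the Rxra junction. Over a part of the log2 changes of single genes, 538 values under an alternative kept their direction and side of the threshold. In that part 29 passed newly, 26 no longer passed and 11 changed sign. Over all changes of the members, those not called kept both in 921 values, passed newly in 30 and changed sign in 42. Those called kept both in 179 values and no longer passed in 25. In LT-HSC of batch 1, knockout over floxed control, rescaling took Hbb-bt to -0.11 and the beta sum to -0.36. Leaving out 1 library gave -0.88 to 0.14 for Gata1, -0.57 to 0.52 for Epor (0.017 without the first knockout) and -0.75 to 0.064 for Hbb-bs. In MPP the range for Klf1 was -0.16 to 0.40. In batch 2, labelled RXR knockout over Cre control, it was -0.19 to 0.48 for Klf1, with -0.18 without the second Cre control and -0.16 without the second library labelled RXR knockout, and -0.76 to 0.16 for Car1. The cause of these changes was not tested.

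The count of members called in LT-HSC of batch 1 was 4, and 1 to 4 with 1 library left out. On rescaled TPM it was 0 without the third knockout, where 2 libraries remain. Between MPP and LT-HSC of knockouts the count was 5, with 3 without a filter, where more genes are tested, and 3 to 6 with 1 library left out. Between MPP and LT-HSC of floxed controls it was 8, with 7 to 8. The count of 0 became 0 to 3 for Myc-allele LT-HSC over Cre controls and 0 to 3 for the difference between batches. The counts with 1 library left out stand without the share of all genes called in those fits. With the replicate number as a block the counts were 4 and 0 for knockout over floxed control in LT-HSC and MPP, 1 for labelled RXR knockout over Cre control, 2 over both batches and 3 for the difference between batches. Of all genes those fits called 6286 higher and 100 lower in LT-HSC, 26 and 57 in MPP, and 14 and 40 in batch 2. They called 262 and 36 over both batches, and 1067 and 38 for the difference. With the pool as a block the counts of members were 7 between the cell types in knockouts, 9 in floxed controls and 2 for the difference between cell types. Beside these, 20.9% of all genes were lower in knockouts, 1063 of 14839 in floxed controls, and 9.04% were called for the difference. Replicate numbers across genotypes do not pair the libraries, with correlations of deviations from -0.14 to 0.28.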
